A study of Mus musculus with 12 samples.

Results

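The transcripts of the mouse mitochondrial genome were described in the hypothalamic arcuate nucleus (ARC). They were the rows of the deposited expression table whose gene symbol begins with mt-, 37 of 38283 rows: 13 protein-coding genes, 2 rRNA genes and 22 tRNA genes. The ARC, the hypothalamic nucleus that holds the AGRP and POMC neurons governing appetite, was cut by laser-capture microdissection from brain sections 14 µm thick. The 12 libraries, 1 per mouse, came from 5 wild-type (WT) mice and 7 mice homozygous (Hom) for the R299Q mutation of the γ2 regulatory subunit of AMPK, a cellular energy sensor encoded by *Prkag2*. All were C57BL/6 males aged 8 weeks fed ad libitum. The mutation was a germline knock-in, so every cell of a Hom mouse carried it, and the comparison asked how the ARC of mutant mice differed from that of WT mice at baseline. Levels were FPKM, the fragments on a gene scaled to its length and to the size of the library, so that levels of different genes can be compared per length.

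Mitochondrial DNA is a small circle present in many copies per cell. Its protein-coding genes encode subunits of complexes I, III and IV of the respiratory chain and of ATP synthase, and all other subunits are made from nuclear genes. Both strands are transcribed by the polymerase POLRMT as long polycistronic RNAs, and the tRNAs that punctuate them are cut out by RNase P and ELAC2, which frees the mRNAs and rRNAs between them. The steady level of each mRNA therefore reflects transcription, which is shared along a strand, together with processing and decay, which can differ from gene to gene. Mitochondrial transcripts are abundant in neurons, whose energy demand is high.

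Several arrangements on the genome (chromosome M of GRCm38, positions from GENCODE M21) bear on the values. One is overlap between genes. *mt-Nd4l* and *mt-Nd4* lie on 1 mRNA and share 7 bases, shown in capitals at the end of the first and the start of the second.
mt-Nd4l (chrM:10134-10173, plus strand): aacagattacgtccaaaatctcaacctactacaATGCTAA
mt-Nd4 (chrM:10167-10206, plus strand): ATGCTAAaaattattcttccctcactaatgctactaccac

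*mt-Atp8* and *mt-Atp6* likewise lie on 1 mRNA and share 43 bases, which are the capitals at the end of *mt-Atp8*.
mt-Atp8 (chrM:7880-7969, plus strand): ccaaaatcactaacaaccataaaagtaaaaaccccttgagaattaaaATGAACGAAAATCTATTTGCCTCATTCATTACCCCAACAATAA

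Another is a block of the nuclear genome, on chromosome 1 from 24611535 to 24616197, that carries annotated pseudogene copies of 7 of the protein-coding genes. Only annotated transcripts were searched, so the stretches between these copies were not examined. The copies of *mt-Co2*, *mt-Atp6*, *mt-Co3* and *mt-Nd4l* were identical to the mitochondrial gene over 681, 678, 783 and 294 aligned bases, and so was that of *mt-Nd4* over 876 bases. The copy of *mt-Co1* differed at 1 of 483 bases. That of *mt-Nd3*, *Gm28438*, differed at 1 base of the aligned part, by the substitution T3C, counted from 1 at the first base of *mt-Nd3* and shown in capitals.
mt-Nd3 (chrM:9459-9518, plus strand): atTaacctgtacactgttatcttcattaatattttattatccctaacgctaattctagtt
Gm28438 (chr1:24613060-24613119, minus strand): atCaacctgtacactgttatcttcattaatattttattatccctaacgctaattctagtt

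Fragments from these 7 genes could not be told apart from fragments of the copies over the identical stretches. Of the block, *Gm10222*, the copy of *mt-Nd4l*, had a row in the table and ranged from 0 to 5.91 FPKM, and the other copies of the block were not analysed here. *mt-Nd1*, *mt-Nd2*, *mt-Nd5*, *mt-Nd6* and *mt-Cytb* had no annotated copy there. The last 43 bases of *mt-Atp8*, those shared with *mt-Atp6*, matched the copy of *mt-Atp6* without a difference. Whether the rest of *mt-Atp8*, or tRNA genes that lie between the copied genes, also have copies there was not examined. Pseudogene copies elsewhere that were in the table stayed at or below 5.36 FPKM in every library, except *Gm12155*, which aligned to 158 bases of *mt-Co2* and reached 53.1 FPKM.

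Ordered by how many genes were above 0, the 12 libraries fell into 2 sets. WT 1, WT 2 and Hom 1 to 5 listed 15742 to 16467 genes above 0 (the fewer-gene set), and WT 3 to 5 with Hom 6 and 7 listed 18141 to 18635 (the more-gene set). The labels name no batch, though the sample titles of Hom 6 and 7 are worded otherwise than those of Hom 1 to 5. Summed FPKM ranged from 13306604 to 21188486 per library, and fragment counts were not used here, so the depth behind single values is unknown. The ARC markers *Agrp*, *Npy* and *Pomc* were detected in every library, and lowest in WT 3 (181, 514 and 190 FPKM). *Prkag2* itself averaged 14.6 ± 5.4 FPKM (SD) over the WT and 14.8 ± 4.9 FPKM over the Hom libraries, which is no check of the genotype because the mutation changes a single residue.

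Per length, *mt-Atp8* stood highest of the protein-coding genes, at 9131 ± 3600 FPKM in WT (SD, n = 5). Its 204 bases are close to the 200-base fragments of the libraries, a length at which FPKM depends strongly on how gene length is corrected, so this first place is uncertain. A group of 6 genes followed with WT means between 5929 and 3903 FPKM, in the order *mt-Co1*, *mt-Nd1*, *mt-Co3*, *mt-Atp6*, *mt-Co2* and *mt-Cytb*. Their order was not stable between libraries, since each stood above the next in 7, 7, 8, 9 and 8 of the 12 libraries. *mt-Cytb* was above *mt-Nd4* in all 12, and *mt-Nd4* above *mt-Nd3* in 9. *mt-Nd3* was above *mt-Nd5* in 11, and *mt-Nd5* above *mt-Nd6* in 12. *mt-Nd6*, the one protein-coding gene on the minus strand, and *mt-Nd2* were the lowest of those detected throughout, and exchanged places between libraries.

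**Figure D1:**
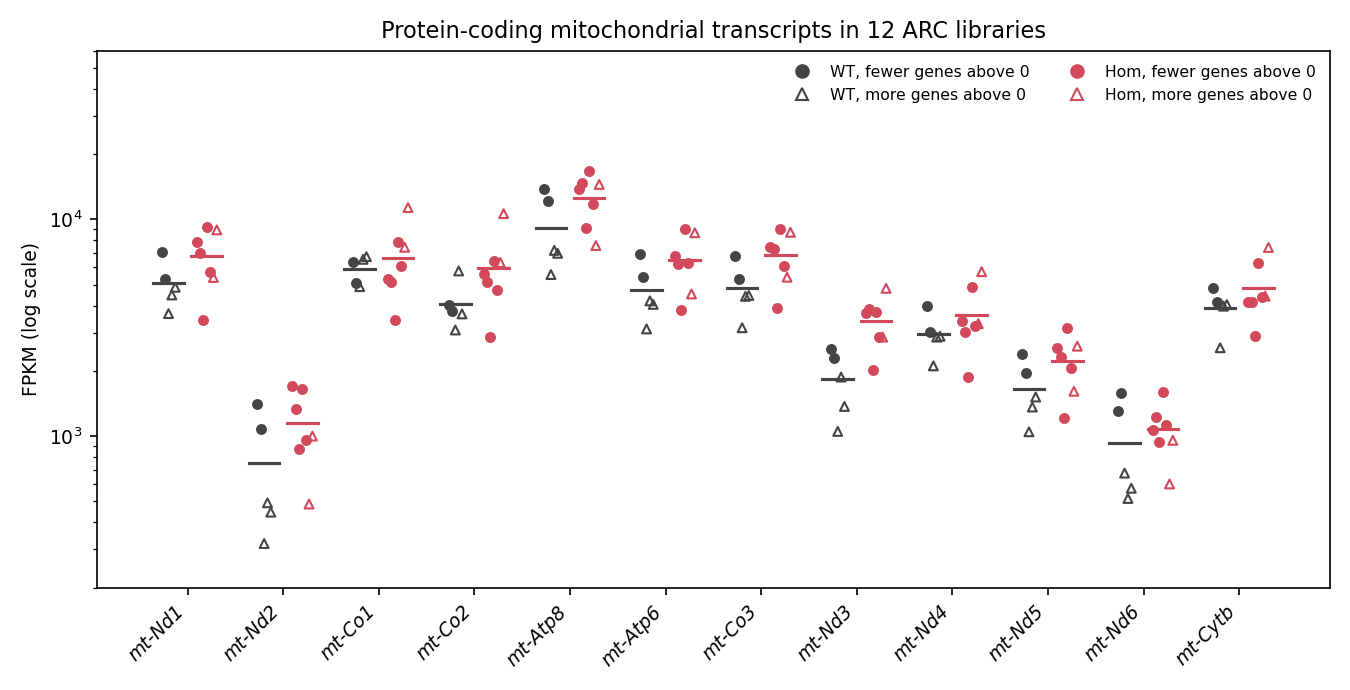
FPKM on a log axis of the 12 protein-coding genes detected in all libraries, in genome order, with WT in grey and Hom in red; filled circles are the 7 libraries with fewer genes above 0, open triangles the 5 with more, and horizontal lines the group means. Means are higher in Hom for every gene plotted, the groups overlap for every gene, and for *mt-Nd2* the 3 WT triangles lie below both WT circles.

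All 12 protein-coding genes that passed the filter on low values (mean of at least 1 FPKM) had a higher mean log2(FPKM + 1) in Hom than in WT, and under quantile normalization 8 of 12 did, with a median log2 fold change of 0.063. Over all 14017 genes tested, 49.3% did. The median log2 fold change of the 12 was 0.43, against -0.0062 over all genes tested. At an unadjusted p under 0.05 in limma, 1 of the 12 was higher in Hom, *mt-Nd3*, and 0 were lower, where 3.05% of all genes were higher and 2.5% lower. Without WT 1, or without Hom 3, 6 of the 12 reached that threshold. With Benjamini-Hochberg adjustment 0 of the 12 passed 0.05 (adjusted p from 0.666 to 0.985 in limma), and 0.00713% of all genes did. In 0 of the 12 did every Hom library lie above every WT library, as happened for 0.128% of all genes. The genes share a genome and the same libraries, and all but *mt-Nd6* share a strand, so 12 differences in 1 direction are not 12 independent observations.

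The differences were larger in the more-gene set. In those libraries 12 of 12 genes were higher in Hom, with a median of 0.73, and in the fewer-gene set 8 of 12 were higher, with a median of 0.011. Over all genes tested the median log2 fold change was 0.13 in the more-gene set and -0.081 in the fewer-gene set. The interaction of genotype with set was positive for 12 of 12 genes, reached an unadjusted p under 0.05 for *mt-Nd3* alone, and passed adjustment for 0. Among all genes, 5.18% had an interaction at an unadjusted p under 0.05. The share of all genes with a positive interaction is not given here, so nothing is read from the shared sign of the 12. The lowest value of 7 of the 12 genes was in WT 3 and of 4 in Hom 3, and the median was 0.29 without WT 3.

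**Figure D2:**
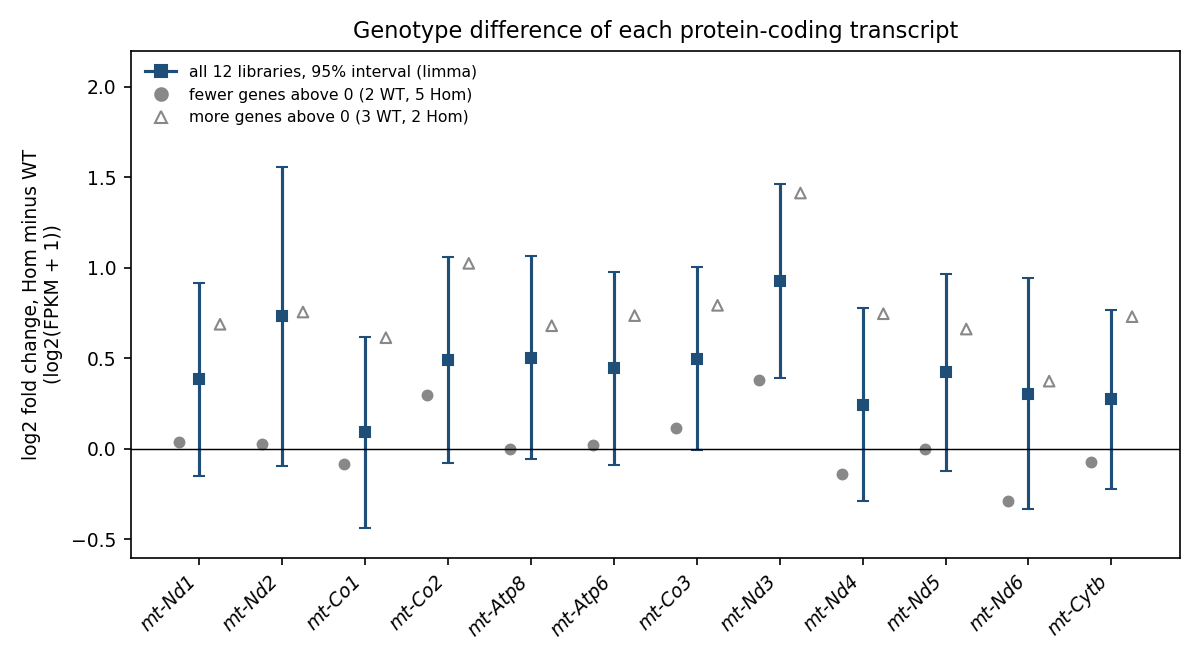
Log2 fold change (Hom minus WT, on log2(FPKM + 1)) of each protein-coding gene, with squares and 95% limma intervals for all 12 libraries, filled circles for the 7 libraries with fewer genes above 0 and open triangles for the 5 with more. The interval of *mt-Nd3*, from 0.39 to 1.46, is the only one that excludes 0, and every triangle lies above its circle.

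Complex I, the NADH dehydrogenase through which electrons enter the chain, takes 7 subunits from the mitochondrial genome, all of them in its membrane arm. *mt-Nd3* (chrM:9459-9806) was at 2524, 2305, 1051, 1872 and 1370 FPKM in WT 1 to 5. In Hom it ranged from 2028 FPKM in Hom 3 through a median of 3685 to 4806 FPKM in Hom 7. Hom 3 overlapped WT 1 and WT 2, and the other 6 Hom libraries lay above all WT libraries. The mean was 1824 ± 618 FPKM over the 5 WT and 3405 ± 895 FPKM over the 7 Hom libraries (SD), which differed by 0.93 on the log2 scale (SE 0.25, exact two-sided permutation p = 0.0076, and p = 0.024 with libraries exchanged only within their set). The log2 difference was 0.38 in the fewer-gene set, where it did not reach an unadjusted p of 0.05 in limma, and 1.41 in the more-gene set. Over all genes tested its adjusted p was 0.666 in limma. The study named this gene and *mt-Nd2* among enriched complex I subunits in its ARC sequencing, so the direction of both here is not independent evidence. Its panels of ARC peptide levels give n = 5, so which Hom libraries it used is not known here.

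*mt-Nd1* (chrM:2751-3707), which lies where quinone is reduced, averaged 5083 ± 1274 FPKM in WT and 6793 ± 2093 FPKM in Hom, a log2 difference of 0.38 (SE 0.25, exact permutation p = 0.17). *mt-Nd2* (chrM:3914-4951) averaged 750 ± 473 FPKM in WT and 1146 ± 443 FPKM in Hom, a log2 difference of 0.73 (SE 0.39, exact permutation p = 0.13). Its WT values split by set: 1413 and 1082 FPKM in WT 1 and WT 2, against 319, 492 and 446 FPKM in WT 3 to 5. Within the sets its log2 difference between genotypes was 0.027 (fewer) and 0.76 (more). Of the libraries in the fewer-gene set 5 were Hom and 2 were WT, and with the set in the model the difference of *mt-Nd2* was 0.36.

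*mt-Nd4* (chrM:10167-11544) and *mt-Nd5* (chrM:11742-13565), the antiporter-like subunits at the far end of the membrane arm, differed by 0.24 (SE 0.25, exact permutation p = 0.38) and 0.42 (SE 0.25, exact permutation p = 0.15). *mt-Nd4* averaged 2971 ± 671 FPKM in WT and 3639 ± 1275 FPKM in Hom, and *mt-Nd5* 1653 ± 525 and 2221 ± 655 FPKM. *mt-Nd6* (chrM:13552-14070, minus strand), at 929 ± 479 and 1074 ± 305 FPKM, differed by 0.31 (SE 0.30, exact permutation p = 0.37). It shares 14 bases with *mt-Nd5* on the other strand, and whether the reads kept their strand is not given in the sources used here, so fragments of minus-strand RNA and of the plus-strand RNA opposite it may not have been told apart. In the fewer-gene set *mt-Nd6* was lower in Hom than in WT, by a log2 difference of -0.29, and in the more-gene set higher by 0.37, and with the set in the model the difference was 0.013. With 1 library left out, the log2 difference of *mt-Nd4* ran from 0.12 (without Hom 7) to 0.39 (without Hom 3), that of *mt-Nd5* from 0.27 (without WT 3) to 0.57 (without WT 1), and that of *mt-Nd6* from 0.13 (without WT 4) to 0.53 (without WT 2).

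*mt-Nd4l* (chrM:9877-10173) was listed at 0 in 11 libraries and at 2.05 FPKM in Hom 7, and did not pass the filter. *mt-Nd4*, encoded on the same mRNA, was between 1880 and 5737 FPKM in those libraries. A listed 0 can be a failed estimate, and this one says nothing of the amount of the RNA. *Gm10222*, its copy in the nuclear block, was above 0 in 5 libraries. The cause of the zeros was not tested.

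Complex III, which passes electrons from quinol to cytochrome c, takes 1 subunit, cytochrome b. *mt-Cytb* (chrM:14145-15288) averaged 3903 ± 822 FPKM in WT and 4813 ± 1517 FPKM in Hom, a log2 difference of 0.27 (SE 0.23, exact permutation p = 0.25) that was 0.13 without WT 3, 0.16 without Hom 7 and 0.39 without Hom 3. The WT libraries lay between 2556 and 4800 FPKM and the Hom libraries between 2897 and 7420 FPKM, so the groups overlapped.

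Complex IV, cytochrome c oxidase, takes its 3 catalytic core subunits from the mitochondrial genome. *mt-Co1* (chrM:5328-6872) had the smallest difference of the 12 genes: 5929 ± 860 FPKM in WT and 6661 ± 2538 FPKM in Hom, a log2 difference of 0.093 (SE 0.25, exact permutation p = 0.73). Of the 7 Hom libraries, 3 were above the highest WT library and the Hom median, 6108 FPKM, was below the WT median of 6374 FPKM. *mt-Co2* (chrM:7013-7696) averaged 4067 ± 1018 and 5965 ± 2384 FPKM, a log2 difference of 0.49 (SE 0.27, exact permutation p = 0.12). *mt-Co3* (chrM:8607-9390) averaged 4825 ± 1333 and 6844 ± 1838 FPKM, a log2 difference of 0.50 (SE 0.24, exact permutation p = 0.077).

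ATP synthase takes 2 subunits of its membrane part. *mt-Atp6* (chrM:7927-8607), which forms the proton channel, averaged 4744 ± 1466 and 6486 ± 1939 FPKM, a log2 difference of 0.45 (SE 0.25, exact permutation p = 0.12). *mt-Atp8* (chrM:7766-7969) averaged 9131 ± 3600 and 12593 ± 3260 FPKM, a log2 difference of 0.51 (SE 0.26, exact permutation p = 0.093). All 7 Hom libraries were above the WT median of *mt-Atp8*, but WT 1 and WT 2, at 13790 and 12131 FPKM, were each above 3 of them, so the groups overlapped.

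Multiplied by gene length and summed, the 13 protein-coding genes took up between 2.77% (WT 3) and 7.34% (Hom 7) of the mapped fragments. The share was 5.06%, 4.11%, 2.77%, 3.85% and 3.78% in WT 1 to 5. In Hom it ranged from 2.83% in Hom 3 through 4.76% to 7.34%. Group means were 3.92% ± 0.82 in WT (SD, n = 5) and 5.07% ± 1.48 in Hom (SD, n = 7), a difference of 1.16 percentage points that was not tested. The difference was 0.17 points in the fewer-gene set and 2.41 points in the more-gene set. By complex, the share in WT and Hom was 1.39% and 1.85% for complex I, 0.447% and 0.551% for complex III, 1.57% and 1.97% for complex IV, and 0.509% and 0.699% for ATP synthase. These shares used the full gene length and depend on it. With each length reduced for the length of the fragments, the share ran from 2.10% (Hom 3) to 5.64% (Hom 7). Group means were then 3.00% in WT and 3.85% in Hom, a difference of 0.84 points. In these bulk samples, fewer cells of a type and less RNA per cell cannot be told apart.

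**Figure D3:**
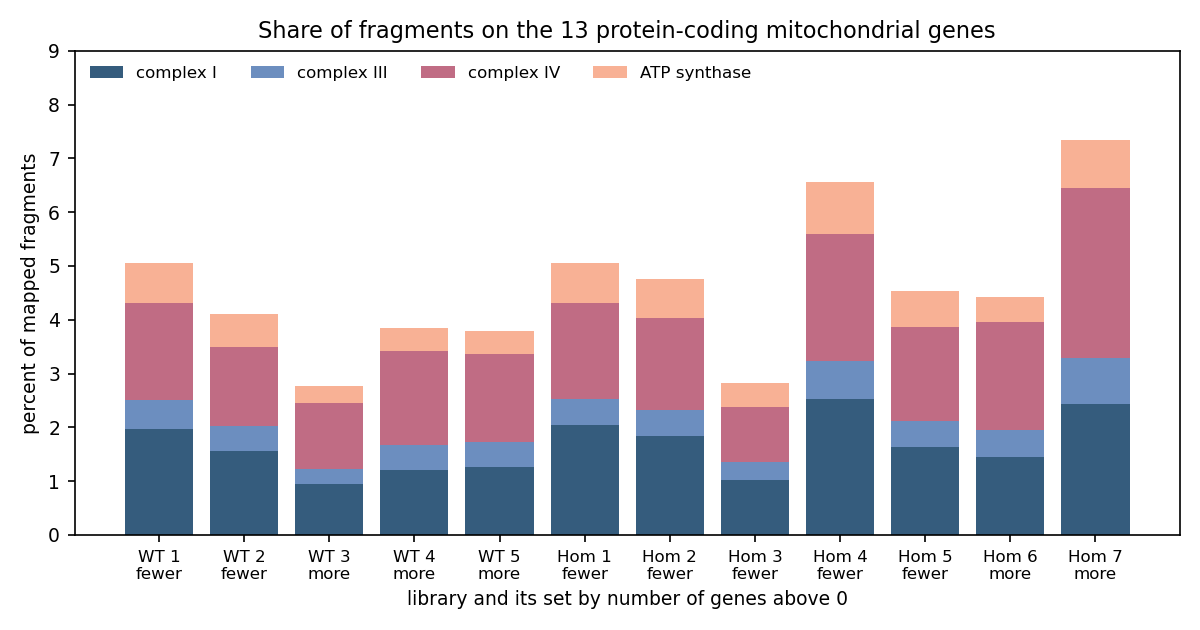
Stacked bars of the percent of mapped fragments on the 13 protein-coding mitochondrial genes, by complex, in each of the 12 libraries; fewer and more give the set by number of genes above 0. WT 3 and Hom 3 are lowest at 2.77% and 2.83%, and Hom 4 and Hom 7 highest at 6.56% and 7.34%.

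Markers of cell types also varied among the libraries. Of 8 markers of arcuate neurons (*Agrp*, *Npy*, *Pomc*, *Cartpt*, *Ghrh*, *Kiss1*, *Tac2* and *Th*), 8 had a higher mean log2(FPKM + 1) in Hom, with a median log2 difference of 0.43, or 0.30 with the set in the model. Their summed level was 1284 to 4513 FPKM in WT and 3405 to 5159 FPKM in Hom, and was lowest in WT 3. By full gene length WT 3 also had the lowest mitochondrial share. By the reduced length Hom 3 did, at 2.10% against 2.15% in WT 3. Single markers differed in order: *Agrp* was at 276 FPKM in Hom 7, which had the highest share, and at 519 FPKM in Hom 3. *Npy* was at 1251 FPKM in Hom 7 and 1149 FPKM in Hom 3, and *Pomc* at 989 and 602 FPKM. General neuronal markers (4 genes) had a median difference of -0.0079 and sums of 512 to 674 FPKM in WT and 472 to 764 FPKM in Hom, lowest in Hom 3. Of the other lists, 3 of 5 astrocyte, 4 of 4 oligodendrocyte, 5 of 5 microglial, 3 of 4 endothelial and 1 of 3 ependymal or tanycyte markers that were tested had higher means in Hom, as did 0 of 4 red cell and 0 of 2 pituitary markers. Over all genes tested, 49.3% had a higher mean in Hom. With the set in the model the median log2 difference of the red cell markers was 0.19 in place of -0.39. That of the pituitary markers was -0.51 in place of -1.14. Both lists were higher in the more-gene set, by median log2 differences of 1.53 and 2.00. In WT 3 the red cell markers summed to 354 FPKM (WT range 33.0 to 511, Hom range 44.7 to 316), and the pituitary markers to 113 FPKM (Hom range 0 to 55.6). The part of cell makeup in the mitochondrial values was not tested.

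Each gene was also compared relative to the other mitochondrial genes of its library. For each library the mean log2(FPKM + 1) of the 13 protein-coding genes was subtracted, and each gene's remainder was compared between genotypes by the exact two-sided permutation test, without adjustment over the 13 genes. By this measure *mt-Nd3* was higher in Hom by 0.50, with the smallest p this exact test can give (p = 0.0013). Its remainder was 0.30 or below in WT 1, WT 2, WT 3 and WT 5, 0.34 in WT 4, and between 0.42 and 0.83 in the 7 Hom libraries, so the groups did not overlap. Of all 14017 genes put on the same scale, 0.00713% had every Hom library above every WT library, which is 1 gene, *mt-Nd3* itself. The mean subtracted was itself higher in Hom, which lowers other genes in Hom on this scale (without the subtraction the share was 0.128%), so nothing is read from that share. The difference of *mt-Nd3* was 0.36 in the fewer-gene set and 0.64 in the more-gene set, and p was 0.0095 with libraries exchanged only within their set.

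The gap between the groups was narrow and depended on the reference. Measured against the mean of the 12 genes other than *mt-Nd4l*, the highest WT and lowest Hom values were -0.541 and -0.536. Measured against the median of the 13, the groups overlapped, with a difference of 0.55 (exact permutation p = 0.0038). Leaving out any 1 library kept the difference between 0.44 and 0.55. The ratio of *mt-Nd3* to *mt-Co3*, its upstream neighbor with one tRNA gene between them, was 0.373, 0.433, 0.332, 0.424 and 0.307 in WT 1 to 5. In Hom it ran from 0.411 to 0.551, and Hom 4 alone lay below the highest WT library. *mt-Nd3* and *mt-Co3* both have copies in the nuclear block.

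The other 12 genes had no exact p under 0.05 on this scale. *mt-Co1* had the largest difference downward, -0.33 (exact permutation p = 0.13), and *mt-Nd2* the next upward, 0.31 (exact permutation p = 0.37). For both, the library sets did not overlap. *mt-Nd2* lay between -1.04 and -0.40 in the fewer-gene set and between -1.80 and -1.59 in the more-gene set. *mt-Co1* lay between 1.23 and 1.63 in the fewer-gene set and between 1.90 and 2.25 in the more-gene set. In all, the sets did not overlap for 6 of the 12 genes: *mt-Co1*, *mt-Co2*, *mt-Nd4* and *mt-Cytb* stood higher in the more-gene set, and *mt-Nd2* and *mt-Atp8* lower. Of all genes on this scale, 0.571% had sets that did not overlap in either direction. Most of those genes are not part of the mean subtracted, while the 12 are, so nothing is read from that share either. Within the sets the difference of *mt-Co1* between genotypes shrank to a mean of -0.13, and that of *mt-Nd2* to -0.0054. *mt-Nd6* was lower in Hom by a mean of -0.35 within the sets (exact permutation p = 0.048 with libraries exchanged within their set), against -0.12 over all libraries.

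**Figure D4:**
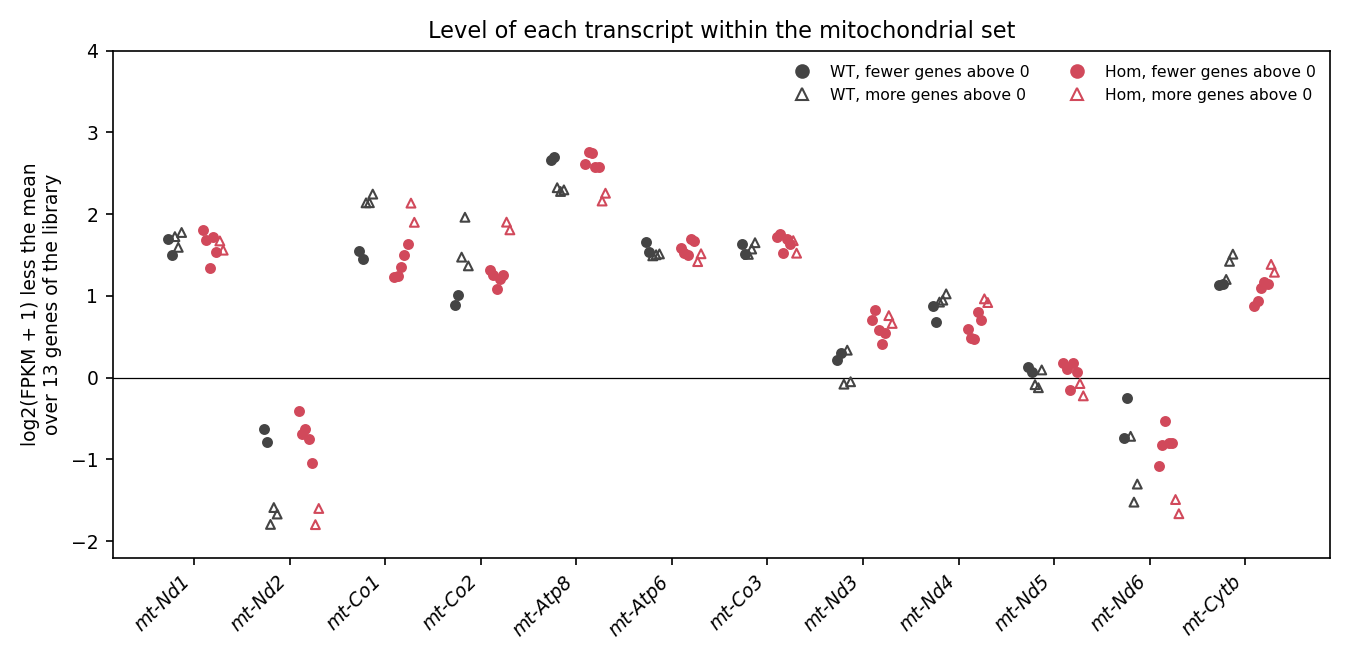
Log2(FPKM + 1) of each protein-coding gene less the mean over the 13 protein-coding genes of the same library, in genome order, with WT in grey and Hom in red; filled circles are the 7 libraries with fewer genes above 0 and open triangles the 5 with more. For *mt-Nd3* the red points, 0.42 and above, lie over all grey points, 0.34 and below, and for *mt-Nd2* and *mt-Co1* triangles and circles separate regardless of color.

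Both ribosomal RNA genes, *mt-Rnr1* (chrM:70-1024) for the small and *mt-Rnr2* (chrM:1094-2675) for the large mitochondrial ribosomal subunit, were listed at 0 in all 12 libraries. Of the flanking tRNA genes, *mt-Tf* was above 0 in 11 libraries and *mt-Tl1* in 12. Mitochondrial rRNA is abundant in any tissue with mitochondria, so a listed 0 was not read as absence. *Gm20594*, a nuclear protein-coding gene that aligned to *mt-Rnr2* over 439 bases at 88.4% identity, was between 11.2 and 57.7 FPKM.

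The 22 tRNA genes are 59 to 75 bases long, shorter than the 200-base fragments, so their FPKM cannot be set against those of mRNAs. The lowest value above 0 of any tRNA gene was 333 FPKM, which shows how coarse the scale is at this length. No tRNA gene was at 0 in every library. Of the 264 tRNA values 40 were 0, and they fell on 10 genes: *mt-Tv* (0 in 8 libraries), *mt-Td* (7), *mt-Tg* (5), *mt-Tl2* (5), *mt-Tw* (5), *mt-Tk* (3), *mt-Ts2* (3), *mt-Tt* (2), *mt-Tf* (1) and *mt-Tr* (1). All 10 are on the plus strand. The 8 tRNA genes on the minus strand were above 0 in every library, as were 4 of the 14 on the plus strand, *mt-Tl1*, *mt-Ti*, *mt-Tm* and *mt-Th*. As for *mt-Nd6*, whether reads kept their strand is not given. Values of the minus-strand tRNA genes, *mt-Ts1* among them, may therefore include fragments of the plus-strand RNA opposite them. Nothing is read from the contrast between strands.

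**Figure D5:**
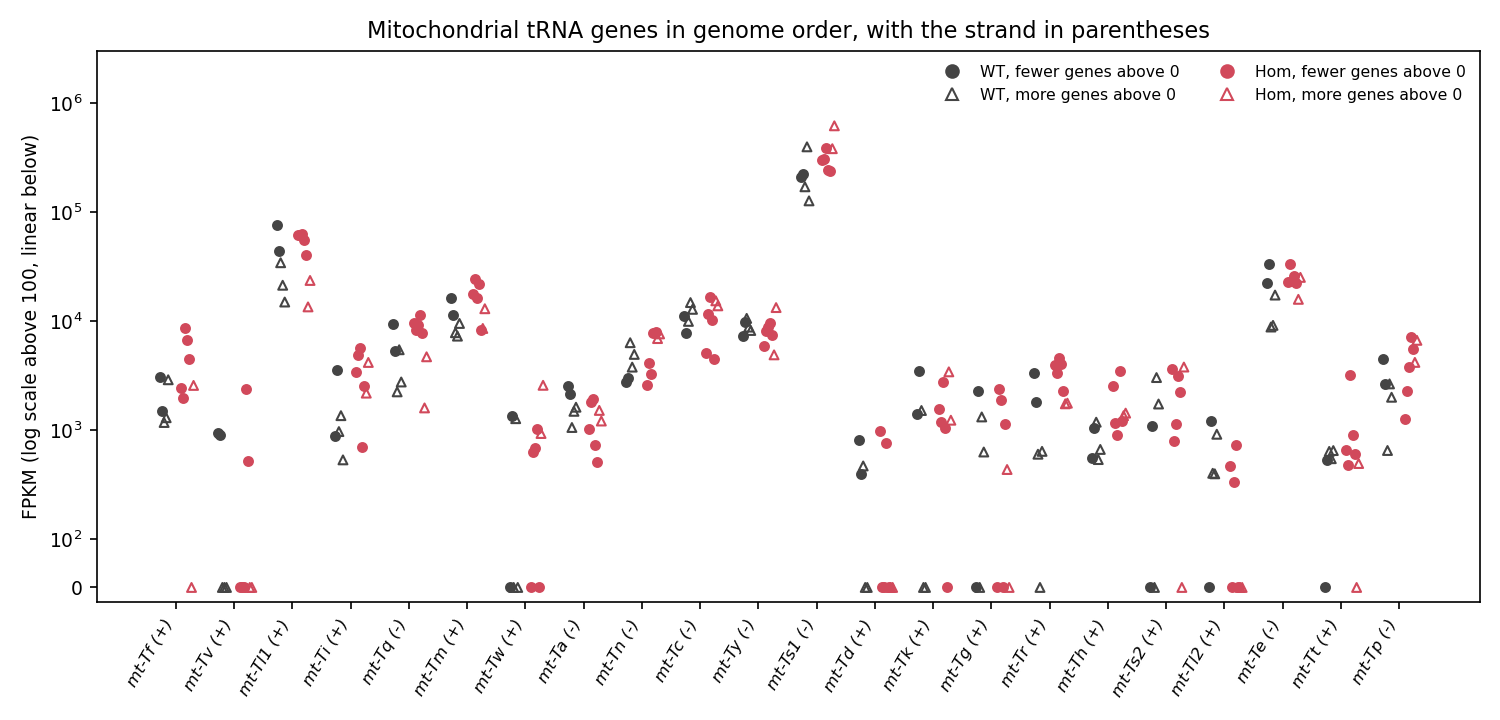
FPKM of the 22 mitochondrial tRNA genes in genome order, on an axis that is logarithmic above 100 and linear below, with the strand of each gene in parentheses, WT in grey and Hom in red; filled circles are the 7 libraries with fewer genes above 0 and open triangles the 5 with more. The 40 values listed at 0 lie on 10 genes of the plus strand, and *mt-Ts1* stands above all others, from 126055 to 614865 FPKM.

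The 4 tRNA genes with the highest means are shown with those of histidine and isoleucine, to which the genotype comparison returns. Capitals mark the 3 bases of *mt-Ts1* that lie opposite the end of *mt-Co1* and the bases of *mt-Ti* shared with the end of *mt-Nd1*.
mt-Ts1, serine (chrM:6870-6938, minus strand): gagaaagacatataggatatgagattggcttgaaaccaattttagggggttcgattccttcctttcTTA
mt-Tl1, leucine (chrM:2676-2750, plus strand): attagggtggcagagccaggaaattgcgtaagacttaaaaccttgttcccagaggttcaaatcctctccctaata
mt-Te, glutamate (chrM:14071-14139, minus strand): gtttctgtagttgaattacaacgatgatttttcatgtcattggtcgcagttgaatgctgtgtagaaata
mt-Tm, methionine (chrM:3845-3913, plus strand): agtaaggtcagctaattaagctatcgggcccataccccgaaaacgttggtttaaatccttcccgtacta
mt-Th, histidine (chrM:11546-11612, plus strand): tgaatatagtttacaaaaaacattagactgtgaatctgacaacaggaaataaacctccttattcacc
mt-Ti, isoleucine (chrM:3706-3774, plus strand): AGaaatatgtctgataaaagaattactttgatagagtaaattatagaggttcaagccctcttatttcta

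*mt-Ts1* was at 208835, 222524, 169657, 394452 and 126055 FPKM in WT 1 to 5, and in Hom between 234947 and 614865 FPKM with a median of 302285. WT 4 stood apart from the other 4 WT libraries, all of which were below every Hom library. The log2 difference was 0.68 (SE 0.29, exact permutation p = 0.054, and p = 0.048 within the sets), and under quantile normalization it was -0.61. *mt-Th*, at 557, 1041, 1178, 535 and 662 FPKM in WT 1 to 5 and 903 to 3491 FPKM in Hom (median 1350), differed by 1.04 (SE 0.32, exact permutation p = 0.020, and p = 0.029 within the sets). Its difference was similar in both sets, 1.09 and 0.89, although the groups overlapped. *mt-Ti* averaged 1449 ± 1192 FPKM in WT and 3355 ± 1697 FPKM in Hom, a log2 difference of 1.29 (SE 0.53, exact permutation p = 0.058).

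These were the 3 of 22 tRNA genes at an unadjusted p under 0.05 in limma, all higher in Hom, and 0 of 22 passed adjustment (smallest adjusted p in limma 0.763). Over all genes tested, 3.05% were higher and 2.5% lower at that unadjusted threshold, and 0.00713% passed adjustment. The mean log2(FPKM + 1), in which listed zeros weigh heavily, was higher in Hom for 14 of the 22 genes and for 9 of the 12 detected in every library. Of all genes tested, 49.3% were higher. Among the 12 tRNA genes detected in every library, *mt-Ta*, *mt-Tc* and *mt-Ty*, of alanine, cysteine and tyrosine on the minus strand, were lower in Hom. Their log2 differences were -0.57, -0.16 and -0.16, with exact permutation p of 0.15, 0.67 and 0.50. *mt-Tn*, of asparagine, which lies between *mt-Ta* and *mt-Tc* on the same strand, was higher by 0.41 (exact permutation p = 0.27). The 8 minus-strand tRNA genes thus did not differ in 1 direction between genotypes: *mt-Tq*, *mt-Tp* and *mt-Te* were higher by 0.55, 0.87 and 0.57, with exact permutation p of 0.32, 0.15 and 0.14. *mt-Tm* and *mt-Tl1*, on the plus strand, were higher by 0.55 and 0.30, with exact permutation p of 0.13 and 0.57.

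*mt-Tl1*, the tRNA gene just after *mt-Rnr2*, separated the library sets instead. It was at 75892, 44033, 61500, 61194, 62524, 55007 and 40461 FPKM in WT 1, WT 2 and Hom 1 to 5, and at 34133, 21218, 14887, 13436 and 23474 FPKM in WT 3 to 5, Hom 6 and Hom 7, with no overlap. With genotype in the model the more-gene set was lower by -1.53 on the log2 scale (SE 0.25, adjusted p = 0.029 in limma). It was the one mitochondrial gene past adjustment for the sets, where 0.143% of all genes were lower and 0.0357% higher in the more-gene set. Leaving out 1 library moved the adjusted p in limma to between 0.0070 and 0.21, and above 0.05 without WT 1, 4 or 5 or Hom 1, 2, 3, 4 or 6, while the difference stayed between -1.69 and -1.33, and under quantile normalization it was -0.21 (adjusted p = 0.86 in limma). *mt-Nd2*, *mt-Nd6* and *mt-Tq* were lower in the more-gene set by log2 differences of -1.19, -0.93 and -1.46, with adjusted p in limma of 0.15, 0.14 and 0.13.

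The nuclear genes that make, process and translate mitochondrial RNA were set beside these values as a list of 42, of which 40 were tested. The mean log2(FPKM + 1) was higher in Hom for 22 and lower for 18, where 49.3% of all genes were higher. The median log2 difference of the list was 0.069. At an unadjusted p under 0.05, 3 were higher and 2 lower, against 3.05% and 2.5% of all genes, and 0 passed adjustment (smallest adjusted p in limma 0.855). *Polrmt*, the mitochondrial RNA polymerase, averaged 11.6 ± 5.3 FPKM in WT and 23.6 ± 10.7 FPKM in Hom, a log2 difference of 0.91 (exact permutation p = 0.092) that was 1.04 in each set. *Tfam*, which packages mitochondrial DNA and starts transcription, averaged 5.04 ± 2.15 and 9.94 ± 5.33 FPKM, a log2 difference of 0.81 (exact permutation p = 0.073). *Fastkd2*, an RNA-binding protein of mitochondrial RNA granules, differed by 1.18 (exact permutation p = 0.091).

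*Tfb1m*, a methyltransferase of the small ribosomal RNA, and *Fastk* were the lower ones. *Tfb1m* was at 4.45 ± 1.88 FPKM in WT and 2.19 ± 1.14 FPKM in Hom, a log2 difference of -0.75 (exact permutation p = 0.057). *Fastk*, of the same family as *Fastkd2*, is known to bind and stabilize *mt-Nd6* mRNA. It was at 54.5 ± 15.0 FPKM in WT and 35.2 ± 9.3 FPKM in Hom, a log2 difference of -0.62 (exact permutation p = 0.034), with -0.98 and -0.32 in the fewer- and more-gene sets. *Lrpprc*, which protects mitochondrial mRNAs from decay, differed by 0.26 (exact permutation p = 0.21). Levels of several of these genes were near 5 FPKM, where the added 1 understates fold changes.

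Nuclear-encoded subunits of the same complexes showed means in the same direction as the mitochondrial ones. Of 32 such genes, 28 had a higher mean log2(FPKM + 1) in Hom and 4 a lower one, where 49.3% of all genes were higher, with a median log2 difference of 0.26. The split was 7 and 0 for complex I, 3 and 1 for complex III, 10 and 0 for complex IV and 8 and 3 for ATP synthase. At an unadjusted p under 0.05, 6 were higher and 0 lower, against 3.05% and 2.5% of all genes, and 0 passed adjustment (smallest adjusted p in limma 0.718). Their summed level was 5561 to 10941 FPKM in WT and 8496 to 10606 FPKM in Hom, and WT 3 was lowest here too.

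Among those with the smallest p were *Ndufv1*, *Cox6c*, *Atp5o* and *Atp5e*. *Ndufv1*, the subunit that binds NADH, was at 80.9 ± 17.1 FPKM in WT and 125 ± 23 FPKM in Hom, a log2 difference of 0.62 (exact permutation p = 0.0076). Its difference was 0.67 in the fewer-gene set and 0.56 in the more-gene set. The study named *Ndufv1* too from its ARC sequencing, so the direction of *Ndufv1* here is not independent evidence. *Cox6c*, of complex IV, differed by 0.62 (exact permutation p = 0.019), *Atp5o* by 0.42 (exact permutation p = 0.0051) and *Atp5e* by 0.68 (exact permutation p = 0.035). *Atp5e* differed by 0.046 in the fewer-gene set and 0.91 in the more-gene set, a split like that of *mt-Atp6* (0.020 and 0.74).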

How the data were processed

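RNA from laser-captured ARC was amplified across the whole transcriptome (NuGEN RNAseq v2), fragmented to 200 bases, made into bar-coded libraries (NuGEN Ovation Rapid DR) and sequenced, 1 library per mouse. Per the submitters' processing notes, TopHat2 2.0.8, Cufflinks 2.2.1 and GRCm38 were used; the annotation and the handling of fragments that map to several places are not given in the sources used here. The authors deposited 1 table of FPKM values. Column names of Hom 4 and Hom 5 carry an extra letter and were matched by number.

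FPKM was taken as log2(FPKM + 1). The 14017 genes with a mean of at least 1 FPKM went into limma 3.58.1 (R 4.3.3) (trend and robust variances, Benjamini-Hochberg over all genes), after a test on simulated data. Single genes were compared by the exact two-sided permutation test over the 12 libraries (smallest p 0.0013), or with libraries exchanged only within their set (smallest p 0.0048). Shares were FPKM times gene length, summed. Nuclear copies were found with BLAST+ 2.17.0 in GENCODE M21 transcripts.

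Members, lists and tests were chosen with earlier results of these data known. Described one by one were all protein-coding mt- rows, rRNA and tRNA rows, the 5 genes with the smallest p of each nuclear list (1 of them is not reported here), *Polrmt*, *Tfam* and *Lrpprc*. The library sets, ratios and set fit came after the data were seen. Alternatives covered pseudocount, filters, scaling, variance model, sets, a replicate block and each library left out.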

Additional observations from a re-analysis of the deposited data

Results flagged for a closer look

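Among 50 groups of libraries examined (WT and Hom for each of 24 mitochondrial genes above 0 in every library and for their fragment share), 2 held 1 library far from the others, where chance gives about 1 in 20. *mt-Ti* was at 3517 FPKM in WT 2, with the other WT libraries between 531 and 1352 FPKM, and without WT 2 its log2 difference between genotypes was 1.68 in place of 1.29. *mt-Ts1* was at 614865 FPKM in Hom 7, with the other Hom libraries between 234947 and 387805 FPKM, and without Hom 7 its log2 difference was 0.54 in place of 0.68.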

How the results depend on the processing

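Of 15 mitochondrial genes refitted under the alternatives (12 protein-coding genes, *mt-Ti*, *mt-Ts1* and *mt-Th*), 0 passed adjustment between genotypes in any setting, the smallest adjusted p of a protein-coding gene in limma being 0.487. Over these genes, 334 values kept their direction and 11 did not. Quantile normalization turned *mt-Nd1* (-0.025), *mt-Co1* (-0.17), *mt-Nd4* (-0.16), *mt-Cytb* (-0.19) and *mt-Ts1* (-0.61). In the fewer-gene set *mt-Co1* (-0.085), *mt-Nd4* (-0.14), *mt-Nd6* (-0.29) and *mt-Cytb* (-0.072) were lower in Hom, and without Hom 7 so was *mt-Co1* (-0.050; its range with 1 library left out was -0.050 to 0.24). The median over the protein-coding genes, 0.43, was 0.011 in the fewer-gene set and 0.29 to 0.56 with 1 library left out. Protein-coding genes at an unadjusted p under 0.05, 1 in the report, numbered 2 with a pseudocount of 0.1, 4 with upper-quartile scaling, 2 with the library set in the model, 0 and 2 in the fewer- and more-gene sets, 6 with array weights and 1 to 6 with 1 library left out. All genes passing adjustment, 1 in the report, numbered 6 and 19 in the fewer- and more-gene sets and 1 to 3 with 1 library left out. The cause of these changes was not tested.

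Same-numbered WT and Hom libraries did not deviate together (correlations from -0.0537 to 0.0288), so the numbers do not pair them. With the replicate block 2 genes passed adjustment, 4 protein-coding genes reached an unadjusted p under 0.05, and the log2 difference of *mt-Co1* was -0.13.

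Relative to the other mitochondrial genes, 1 gene had an exact permutation p under 0.05. The count was 3 against the median of the 13 genes, 2 and 0 in the fewer- and more-gene sets, and 1 to 2 with 1 library left out. For *mt-Nd3* the difference in the more-gene set was 0.64 (exact permutation p = 0.20, where the smallest possible is 0.10). The difference of *mt-Tl1* between library sets was -0.21 under quantile normalization and -1.69 to -1.33 with 1 library left out. The share of mapped fragments differed by 0.78 to 1.53 percentage points with 1 library left out. Without fragment counts, the precision of tRNA values and of listed zeros is unknown.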
